A study of Mus musculus with 3 samples.

Results

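Of the 31053 genes counted in the scRNA-seq libraries of a syngeneic mouse model of glioblastoma (GBM), 9 chemokine receptor genes are described here, chosen by their symbols: *Cx3cr1*, *Ccr2*, *Ccr1*, *Cxcr2*, *Cxcr4*, *Cxcr3*, *Cxcr6*, *Ccr7* and *Ccr9*. Chemokine receptors are G protein-coupled receptors on the surface of leukocytes that bind small secreted proteins, the chemokines, and steer the migration of the cells that carry them. Different leukocytes carry different sets of receptors, so that the same chemokine calls in some cells and not others. In the brain, CX3CR1 is known as the microglial receptor for the neuronal chemokine fractalkine, and CCR2 as the receptor through which classical monocytes leave the bone marrow and enter inflamed tissue.

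The 3 libraries came from female wild-type C57BL/6 mice from Charles River, 6 to 8 weeks of age, which all carried intracranial tumors grown from brain tumor-initiating cells (BTICs) of NPcis mice, animals with mutations in Nf1 and Trp53. One library was made from mice injected with saline (vehicle control, replicate 2). The other 2 were made from mice that received niacin intraperitoneally each day at 100 mg/kg, beginning 7 days after implantation (niacin 1 and niacin 2). Tissue around the injection site was taken 4 weeks after implantation, and its leukocytes were enriched on Percoll and live-sorted. Each library is a pool of animals, 5 mice per pool by the methods of the study and 4 brain tissues by the sample labels, and all tumors came from 1 BTIC line. The recipients were not altered genetically, and no receptor was targeted.

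The files hold 2270 barcodes for vehicle, 2145 for niacin 1 and 2532 for niacin 2, with 8301228, 9373321 and 10359526 unique molecular identifiers (UMIs, counts of captured RNA molecules). Vehicle stood apart in the median share of mitochondrial UMIs per barcode, 8.85% against 3.08% and 3.29%. The libraries shared barcodes: of 5571 distinct sequences, 472 occurred in 2 libraries and 452 in all 3, and the shallower copies had a median of 648 UMIs, at the median 5.26% of those of the deepest copy. A shared barcode was therefore kept only in the library where it had the most UMIs, which, after barcodes under 200 detected genes or over 20% mitochondrial UMIs were dropped, left 4343. Results that changed when every shared barcode was removed are given with both values.

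Barcodes were assigned to cell classes by lineage marker genes, none of them a chemokine receptor, and the classes are called "-like" throughout. A class needed at least 2 detected markers, and 3945 of 4343 barcodes (90.8%) were assigned, 260 were mixed and 138 unassigned. The markers named next helped set the classes, so their shares describe the assignment and do not test it. *Tmem119*, a microglial surface protein, was detected in 88.5% of microglia-like barcodes and 4.37% of the others. Markers of the microglial list were found in 59.1% (*Sall1*) to 91.2% (*Sparc*) of the class. *Tgfbi* marked 81.6% of monocyte/macrophage-like barcodes against 10.8%, *Mmp9* 74.7% of neutrophil-like barcodes against 1.17%, *Cd3e* 82.4% of T cell-like barcodes against 0.891% and *Cd79a* 93.3% of B cell-like barcodes against 0.911%. The labelled brain origin showed in 2251 microglia-like barcodes and 283 choroid plexus-like ones, and no barcode was assigned to endothelial cells. In the order vehicle, niacin 1 and niacin 2, which is kept below, there were 431, 845 and 975 microglia-like, 265, 56 and 64 monocyte/macrophage-like, 82, 71 and 45 neutrophil-like, 192, 125 and 150 T cell-like, 76, 7 and 12 NK cell-like and 24, 32 and 49 B cell-like barcodes.

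Levels are given as CPM, the UMIs of a receptor for each 1000000 UMIs of all genes, summed over the barcodes of a class in a library. They are compared between classes for 1 gene at a time, because UMIs were counted at the 3′ end of each transcript. Shares of positive barcodes were read after each barcode was thinned to 2000 UMIs, which left out 666 microglia-, 98 monocyte/macrophage-, 79 neutrophil-, 141 T cell-, 61 NK cell- and 22 B cell-like barcodes of lower depth. Their exact binomial intervals, like the Poisson intervals of CPM, have a level of 95% and cover counting error only. Choroid plexus cells should lack leukocyte receptors, so choroid plexus-like barcodes (median 6574 UMIs) served as the background from free RNA. Except for *Cx3cr1*, found in 15 of 266 of them (5.64%), no receptor was found in more than 1 of these 266 barcodes (0.376%), and a count of 0 among 266 allows a share of up to 1.13%. Vehicle gave 32 of them, where a count of 0 allows up to 9.38%, and without thinning *Cxcr2* was found in 2 (5.41%) and *Ccr1* and *Ccr2* in 1 each (2.70%) of its 37 choroid plexus-like barcodes, and in none of the niacin libraries.

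**Figure D1:**
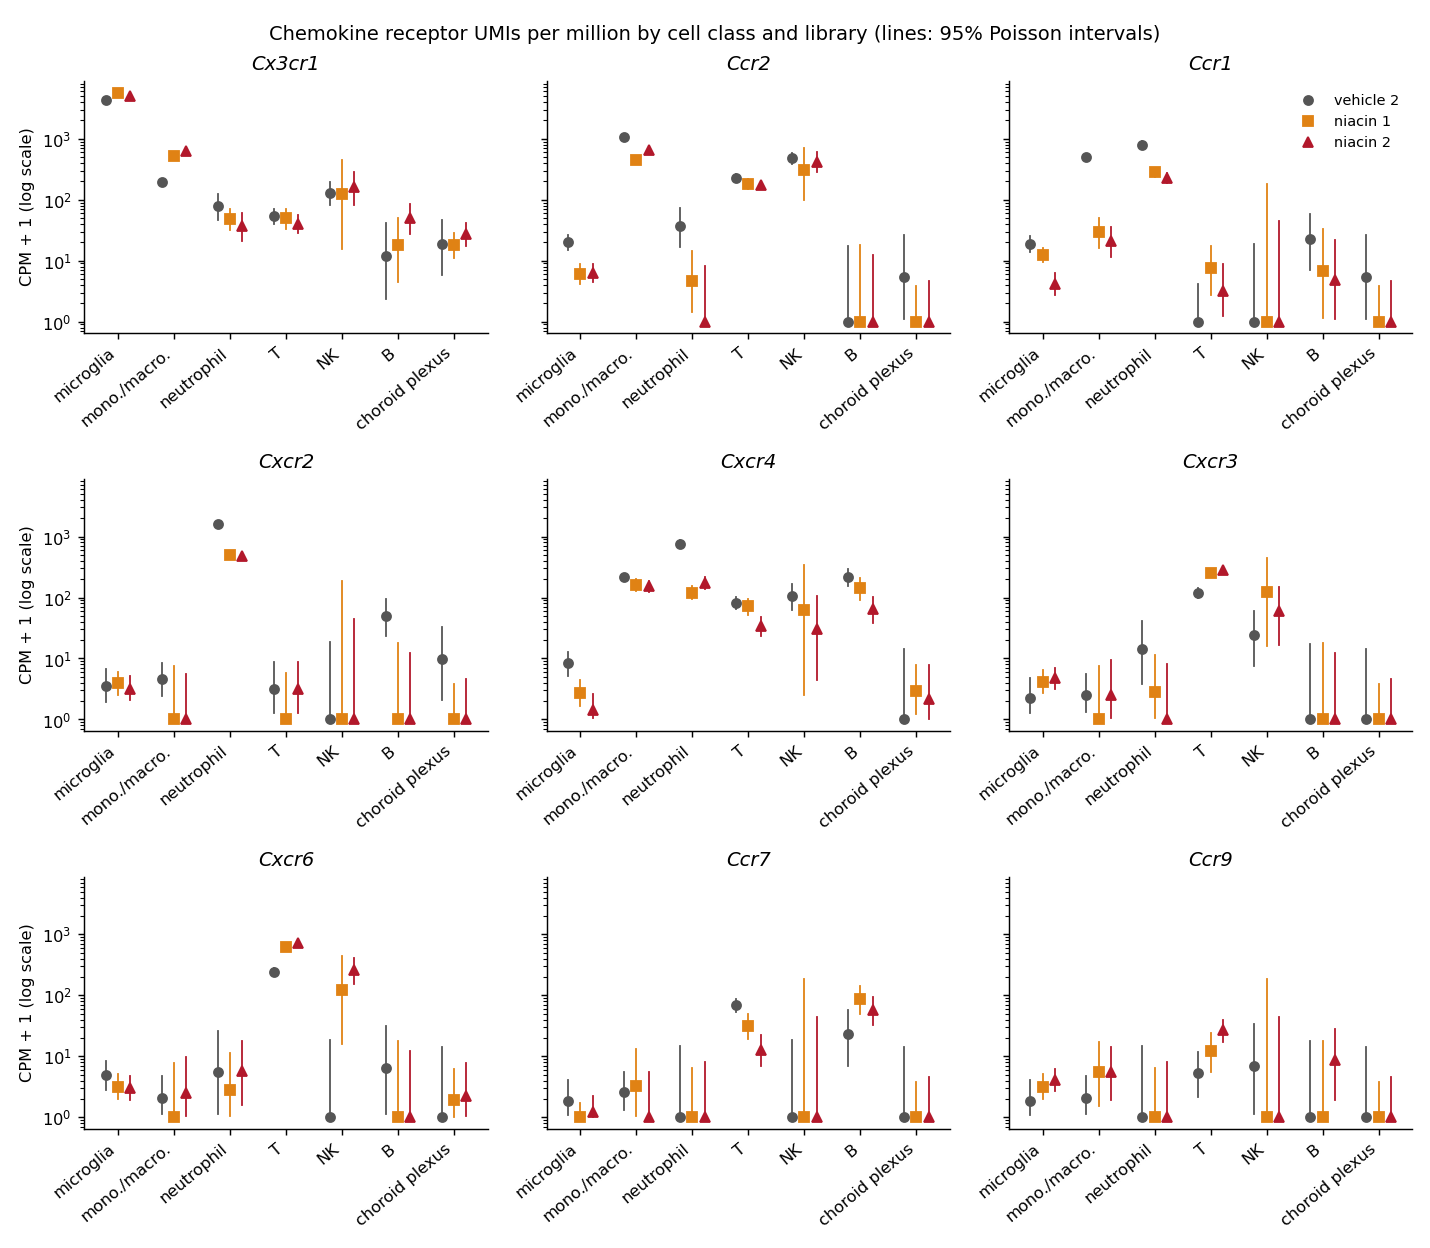
Levels of the 9 receptors in 7 cell classes, as CPM + 1 on a log axis, with 1 point per library (vehicle 2, niacin 1, niacin 2) and lines for the 95% Poisson intervals. *Cx3cr1* is at 4283 CPM or more in microglia-like sums of every library, *Cxcr2* reaches 487 to 1623 CPM in neutrophil-like sums, and *Cxcr3* and *Cxcr6* are high in T cell-like sums, at 119 to 278 and 242 to 721 CPM.

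Of the receptors, 5 lie on chromosome 9, and 4 of these stand within 435 kb of each other. The positions are those of GENCODE M21 on the GRCm38 (mm10) build, which gives *Ccr9* at chr9:123678439-123784330, *Cxcr6* at chr9:123806475-123811760, *Ccr1* at chr9:123962124-123968692 and *Ccr2* at chr9:124101950-124113557. Although neighbors on the chromosome, these 4 were not all highest in the same class (below). Among classes with at least 10 barcodes in every library, *Ccr2* had its highest mean in monocyte/macrophage-like and *Ccr1* in neutrophil-like sums. *Cxcr6* and *Ccr9* both had theirs in T cell-like sums. *Cx3cr1* lies apart on the same chromosome, at chr9:119901616-120069879. *Cxcr2* (chr1:74153989-74161246) and *Cxcr4* (chr1:128588199-128592293) share chromosome 1, *Ccr7* is at chr11:99144196-99155077 and *Cxcr3* at chrX:101731535-101734269. *Cxcr6* lies within *Fyco1*, a gene of the opposite strand. The annotated span of *Cx3cr1* overlaps other genes of its own strand, among them *Gorasp1*, and that of *Ccr9* overlaps *Gm17200*. How reads from shared sequence were counted was not examined.

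The 100 bases just before the first annotated exon are shown for the pair of T cell receptors that moved together and for the 3 receptors with the highest mean in neutrophil-like sums, to let their letters be compared. They come from RefSeq (GRCm38.p6), 5′ to 3′ on the strand of the gene, with matches to 4 short motifs in capitals.
Cxcr3, chrX:101734270-101734369, minus strand: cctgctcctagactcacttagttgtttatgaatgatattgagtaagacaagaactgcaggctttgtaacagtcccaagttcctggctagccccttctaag
Cxcr6, chr9:123806375-123806474, plus strand: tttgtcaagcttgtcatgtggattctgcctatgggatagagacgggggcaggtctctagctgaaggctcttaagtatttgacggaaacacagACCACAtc
Cxcr2, chr1:74153889-74153988, plus strand: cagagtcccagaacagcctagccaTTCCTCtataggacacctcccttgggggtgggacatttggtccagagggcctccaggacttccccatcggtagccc
Ccr1, chr9:123968693-123968792, minus strand: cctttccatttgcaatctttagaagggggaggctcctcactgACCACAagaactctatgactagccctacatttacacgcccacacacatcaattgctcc
Cxcr4, chr1:128592294-128592393, minus strand: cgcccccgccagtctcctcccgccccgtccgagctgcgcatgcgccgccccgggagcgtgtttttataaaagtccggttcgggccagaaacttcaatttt
The motifs, searched on both strands, were an ETS core (CGGAAG), a purine-rich ETS box (GAGGAA), a RUNX motif (TGTGGT) and a T-box motif (GGTGTG). *Cxcr6* and *Ccr1* held the RUNX letters on the reverse strand, and 5.61% of 32851 promoter stretches of the same length held them on either strand. *Cxcr2* held the purine-rich ETS box on the reverse strand, found on either strand in 9.82% of them, and the stretches of *Cxcr3* and *Cxcr4* held none of the 4.

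*Cx3cr1* was the microglial receptor. Of its 58931 UMIs in kept barcodes, 56321 (95.6%) lay in microglia-like barcodes and 1024 (1.74%) in monocyte/macrophage-like ones. Microglia-like sums held 4283, 5663 and 5095 CPM and monocyte/macrophage-like sums 196, 524 and 629 CPM, ranges that did not overlap. The means were 5014 ± 694 and 450 ± 226 CPM (SD, n = 3 libraries). At 2000 UMIs, 99.2% of 1585 microglia-like barcodes were positive. Neutrophil-, T cell-, B cell- and choroid plexus-like sums lay far lower, the last at 17.9, 17.1 and 26.5 CPM, and each neighbor in this order overlapped the next. NK cell-like sums, not in this order, held 129, 122 and 160 CPM, from 22, 2 and 11 UMIs. Basophil or mast cell-like sums, of 5, 31 and 36 barcodes, held 382, 312 and 411 CPM, within the range of monocyte/macrophage-like ones. Between microglia- and monocyte/macrophage-like sums, *Cx3cr1* differed by 3.44 on the log2 scale (SE 0.33, adjusted p = 2.05e-08, quasi-likelihood test of edgeR blocked on library; here and below, p-values are adjusted by Benjamini-Hochberg for every gene tested).

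*Ccr2* and *Ccr1*, receptors for monocyte chemoattractants and for inflammatory CC chemokines, were receptors of the infiltrating myeloid cells. Monocyte/macrophage-like barcodes held 2655 of 4026 *Ccr2* UMIs (65.9%), T cell-like ones 490 (12.2%) and NK cell-like ones 115 (2.86%). *Ccr2* stood at 1050, 451 and 648 CPM in monocyte/macrophage-like sums, 226, 181 and 175 CPM in T cell-like sums and 19.3, 5.1 and 5.3 CPM in microglia-like sums, 3 ranges that did not overlap. NK cell-like sums held *Ccr2* at 475, 305 and 421 CPM, from 81, 5 and 29 UMIs. This range overlapped that of monocyte/macrophage-like sums and lay above that of T cell-like ones. No *Ccr2* UMI was counted in B cell-like barcodes of any library. *Ccr1* UMIs fell mostly to monocyte/macrophage-like (54.4% of 1839) and neutrophil-like barcodes (23.1%). Its levels in neutrophil-like sums, 798, 280 and 227 CPM, overlapped those in monocyte/macrophage-like sums, 504, 28.9 and 19.96 CPM, but in each library the neutrophil-like sum was the higher.

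*Cxcr2*, the receptor that draws neutrophils toward CXC chemokines such as CXCL1 and CXCL2, had 840 of its 975 UMIs (86.2%) in neutrophil-like barcodes. Its levels there were 1623, 504 and 487 CPM, and no sum of another class with at least 10 barcodes exceeded 49.6 CPM. That value, in the B cell-like sum of vehicle, came from 9 UMIs in 1 barcode. *Cxcr4*, the receptor for CXCL12 that retains leukocytes in bone marrow and tissue, was spread over more classes than the other receptors. It was at 762, 120 and 172 CPM in neutrophil-like sums, 218, 162 and 152 CPM in monocyte/macrophage-like sums, 215, 141 and 64.0 CPM in B cell-like sums and 81.4, 70.9 and 33.1 CPM in T cell-like sums. Each of these neighbors overlapped the next, whereas microglia-like sums, at 7.3, 1.7 and 0.44 CPM, lay below all of them.

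*Cxcr3*, which binds the interferon-induced ligands CXCL9 and CXCL10, and *Cxcr6*, the receptor for CXCL16, were receptors of T cell-like barcodes. These held 531 of 642 *Cxcr3* UMIs (82.7%) and 1293 of 1492 *Cxcr6* UMIs (86.7%). *Cxcr3* was at 119, 255 and 278 CPM in T cell-like sums and *Cxcr6* at 242, 627 and 721 CPM, and the sums of the other 5 classes fitted did not exceed 13.5 and 5.51 CPM. NK cell-like sums held *Cxcr3* at 23.5, 122 and 58.1 CPM, from 4, 2 and 4 UMIs. *Cxcr6* was at 0, 122 and 262 CPM there, from 0, 2 and 18 UMIs.

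*Ccr7*, the receptor that guides naive lymphocytes and mature dendritic cells to lymph nodes, and *Ccr9*, the receptor for the gut and thymus chemokine CCL25, were rare. Of 171 *Ccr7* UMIs, 94 (55.0%) lay in T cell-like barcodes, 34 (19.9%) in B cell-like ones and 18 (10.5%) in 5 of the 6 migratory dendritic cell-like barcodes, all of vehicle. B cell-like sums, at 22.0, 84.8 and 56.5 CPM, and T cell-like sums, at 67.6, 30.6 and 11.7 CPM, overlapped. *Ccr9* had 281 UMIs, of which 130 (46.3%) came from 3 plasmacytoid dendritic cell-like barcodes, 61 (21.7%) from mixed barcodes and 35 (12.5%) from T cell-like ones. It was concentrated: 9 barcodes with at least 5 UMIs each held 207 of the 281 UMIs (73.7%), 1 of them held 99, and 6 of the 9 had at least 2 dendritic cell markers. *Ccr9* had no UMI in neutrophil- or choroid plexus-like barcodes.

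**Figure D2:**
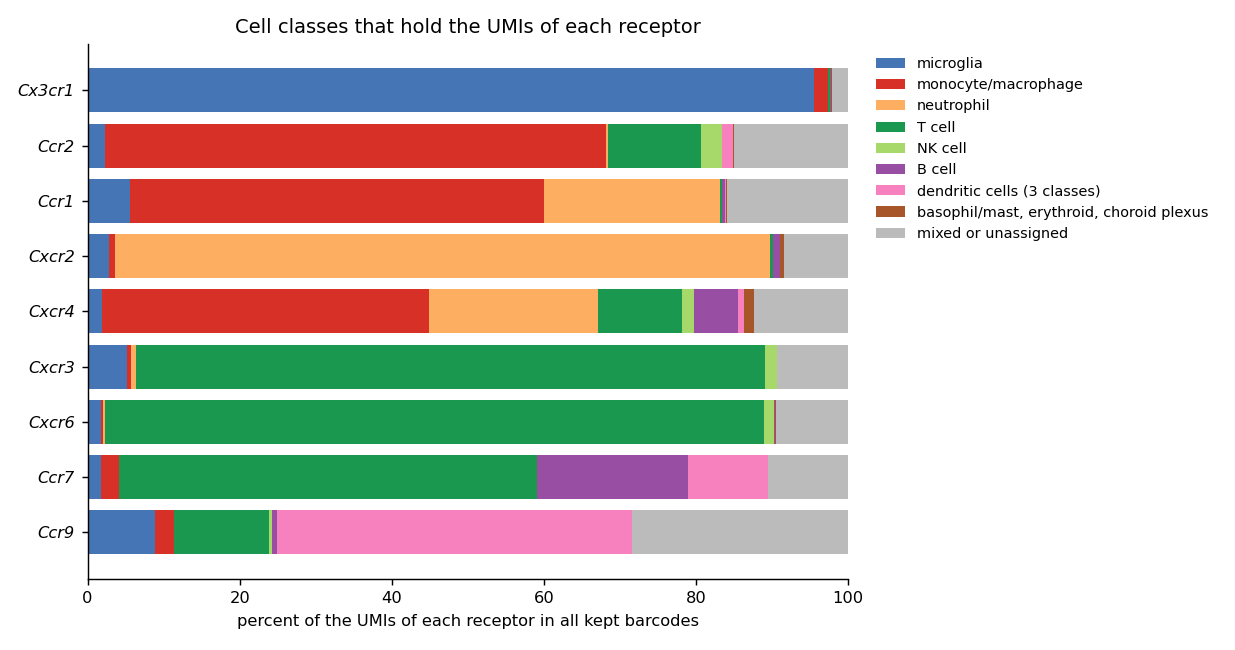
Percent of the UMIs of each receptor in all kept barcodes that lay in each cell class, as stacked bars. Microglia-like barcodes fill 95.6% of the *Cx3cr1* bar, T cell-like barcodes 82.7% and 86.7% of the *Cxcr3* and *Cxcr6* bars, and neutrophil-like barcodes 86.2% of the *Cxcr2* bar, while *Cxcr4* is divided, with 43.0% as its largest share.

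Resident and infiltrating myeloid cells were compared first. Of 8 receptors tested between microglia- and monocyte/macrophage-like sums, 1 was higher in microglia-like sums (*Cx3cr1*, above) and 3 were lower, against 42.6% of the 9630 genes tested that passed in either direction. *Ccr2* was lower by 6.47 on the log2 scale (a log2 fold change of -6.47, SE 0.42, adjusted p = 1.73e-10). *Cxcr4* had a log2 fold change of -6.27 (SE 0.47, adjusted p = 4.99e-10) and *Ccr1* of -3.64 (SE 0.62, adjusted p = 4.83e-05), each lower in microglia-like sums of all 3 libraries. *Cxcr2*, *Cxcr3*, *Cxcr6* and *Ccr7* did not pass the test, and *Ccr9* had too few UMIs to be tested. Among 24 ligand genes, 12 were tested: *Ccl12*, *Ccl4*, *Ccl3* and *Ccl2* were higher in microglia-like sums (log2 fold changes 3.85, 3.56, 2.72 and 1.32) and *Cxcl2*, *Cxcl9*, *Ccl6* and *Ccl9* lower (-6.42, -3.61, -2.74 and -1.72), with a median of -0.77 beside 0.11 for all genes.

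Neutrophil- and monocyte/macrophage-like sums differed in 5 of 8 receptors, against 22.1% of genes. *Cxcr2* was higher in neutrophil-like sums by 9.36 on the log2 scale (SE 0.64, adjusted p = 4.49e-10) and *Ccr1* by 2.43 (SE 0.56, adjusted p = 0.00283). *Cxcr4* was higher by 1.14 (SE 0.37, adjusted p = 0.028), a call that was lost without niacin 2 (1.11, adjusted p = 0.138) and with scaling by total UMIs (0.61, adjusted p = 0.246). Total UMIs also moved the median of all genes from -0.17 to -0.67 and the split of called genes from 982 higher and 1151 lower to 555 and 2512. *Ccr1* too missed the threshold without niacin 2 (1.64, adjusted p = 0.125). *Ccr2* was lower in neutrophil-like sums (log2 fold change -5.79, SE 0.50, adjusted p = 6.32e-08), as was *Cx3cr1* (-2.50, SE 0.36, adjusted p = 2.11e-05). Of the ligands, *Cxcl2*, itself a ligand of CXCR2, was the 1 gene of 12 tested that was higher in neutrophil-like sums (3.41, adjusted p = 4.65e-06), and 4 were lower.

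T cell-like sums differed from monocyte/macrophage-like sums in 7 of 8 receptors, against 35% of genes. *Cxcr6*, *Cxcr3* and *Ccr7* were higher in T cell-like sums, with log2 fold changes of 8.59 (SE 0.53, adjusted p = 4.13e-11), 6.93 (SE 0.53, adjusted p = 5.45e-09) and 4.69 (SE 0.81, adjusted p = 0.00014). *Ccr1*, *Cx3cr1*, *Ccr2* and *Cxcr4* were lower, at -5.74 (SE 0.90), -3.17 (SE 0.35), -1.81 (SE 0.34) and -1.64 (SE 0.38), with adjusted p of 2.09e-05, 1.46e-07, 0.000239 and 0.00155. The difference in *Ccr2* shrank to -0.59 (adjusted p = 0.316) when every barcode shared between libraries was removed, and the other 6 kept their call. Of the ligands, 1 of 12 tested, *Ccl5*, was higher in T cell-like sums (5.02, adjusted p = 2.52e-05), and 8 were lower, among them *Cxcl16* (-6.08) and *Cxcl9* (-6.65), the ligands of CXCR6 and CXCR3.

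Between T cell- and B cell-like sums, 5 of 8 receptors passed, against 12.2% of genes. B cell-like barcodes held no UMI of *Ccr2* or *Cxcr3*, so that T cell-like levels were at least 40.7-fold and at least 44.1-fold higher (floor of 3 UMIs over the class; adjusted p = 1.92e-06 and 1.42e-06). *Cxcr6* was higher by 8.03 (SE 0.68, adjusted p = 9.30e-09). *Cxcr4* was lower in T cell-like sums (log2 fold change -1.37, SE 0.42, adjusted p = 0.0315), but fell short of the threshold in 8 of 15 alternatives, including without niacin 1 (adjusted p = 0.0563), without niacin 2 (adjusted p = 0.092) and without shared barcodes (-0.83, adjusted p = 0.295). *Cxcr2* was called lower in T cell-like sums (-3.42, adjusted p = 0.0397) on the 1 B cell-like barcode of vehicle described above, and the sign turned to 3.38 without that library. *Ccr7* did not differ beyond the spread (-1.07, SE 0.58, adjusted p = 0.305). Of the other chemokine receptors 4 were tested, and 1 was higher and 2 were lower in T cell-like sums, the latter being *Ccr6* and *Cxcr5*, the receptor that leads B cells to follicles (-3.69 and -3.34, adjusted p = 0.00358 and 0.0124).

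**Figure D3:**
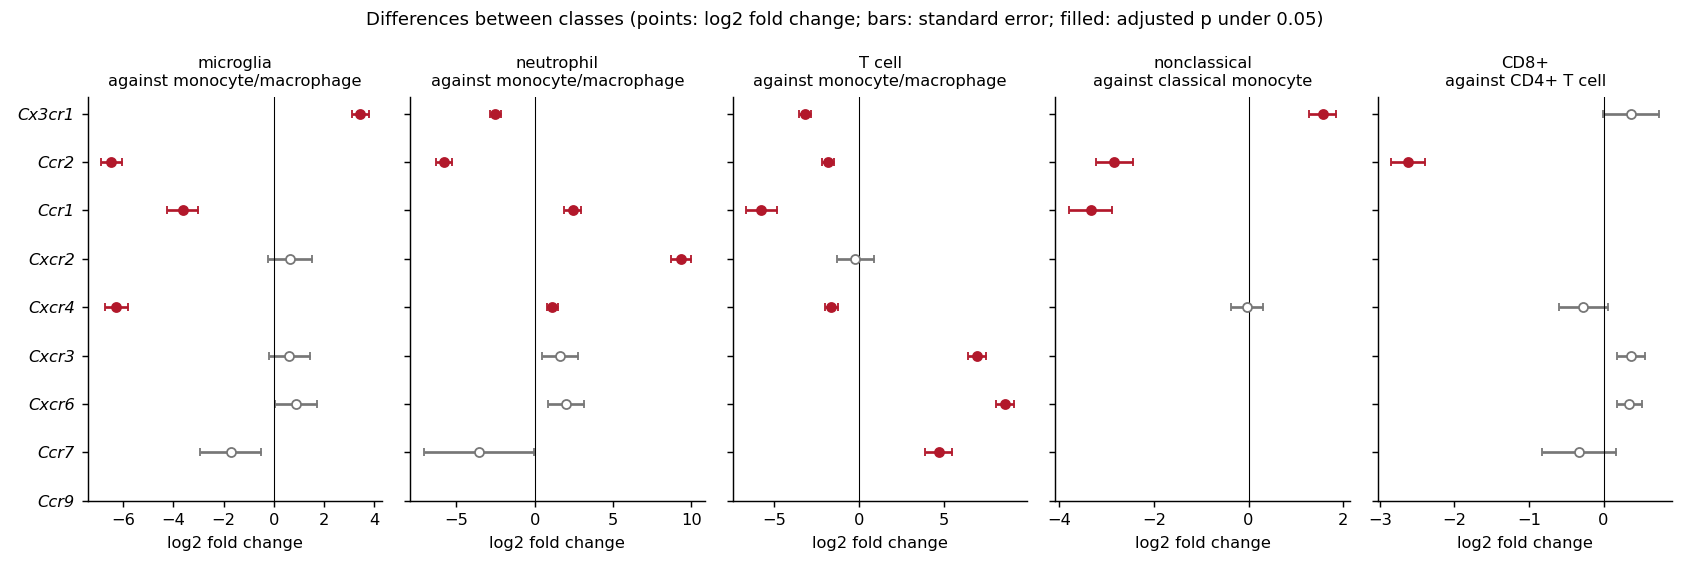
Log2 fold changes of the receptors in 5 comparisons between classes or subsets, with bars for the standard error and filled points for an adjusted p under 0.05. Receptors with too few UMIs to be tested have no point. *Cx3cr1* stands at 3.44 in microglia- against monocyte/macrophage-like sums, where *Ccr2* and *Cxcr4* lie beyond -6, and *Ccr2* is the receptor with a filled point in CD8+ against CD4+ T cell-like barcodes, at -2.62.

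NK cell-like barcodes numbered 7 in niacin 1, under the minimum of 10, so T cell- and NK cell-like sums were compared at a minimum of 5 that was chosen after the data were seen. Of 8 receptors, 2 differed, against 3.32% of genes, both higher in T cell-like sums: *Cxcr6* by 2.75 (SE 0.52, adjusted p = 0.000617) and *Cxcr3* by 2.44 (SE 0.51, adjusted p = 0.00279). Both calls were lost in DESeq2 (2.50 and 2.22, adjusted p = 0.137 and 0.185), which instead called *Cx3cr1* lower in T cell-like sums (-1.49, adjusted p = 0.0249). *Ccr2* was at 475, 305 and 421 CPM in NK cell-like sums, above the T cell-like sum of the same library each time, without passing the test (-0.61, SE 0.41, adjusted p = 0.576). At 2000 UMIs, *Ccr2* was found in 20 of 34 NK cell-like barcodes (58.8%, interval 40.7% to 75.4%).

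The monocyte/macrophage-like class was divided by further markers into classical (144, 5 and 13 barcodes) and nonclassical monocyte-like barcodes (25, 48 and 44), with 13 *Cd209a*-positive barcodes and 34 *Arg1*-positive macrophage-like ones, the latter all of vehicle. Classical monocytes are known as *Ccr2*-high cells that enter tissue, and nonclassical monocytes as *Cx3cr1*-high cells that patrol vessels. *Ccr2* was at 1357, 1468 and 1799 CPM in classical monocyte-like sums and 491, 227 and 104 CPM in nonclassical ones, without overlap. *Cx3cr1* ran the other way, at 119, 287 and 302 CPM against 655, 578 and 818.5 CPM, also without overlap. *Ccr1* was at 623, 160 and 20.6 CPM in classical and 95.98, 5.7 and 2.4 CPM in nonclassical sums, higher in the classical sum of every library. *Cxcr4* overlapped, at 221, 79.8 and 192 CPM against 209, 184 and 155 CPM.

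With the same minimum of 5 barcodes, 3 of 4 receptors differed between nonclassical and classical monocyte-like sums, against 9.79% of genes. The log2 fold changes were -2.84 for *Ccr2* (SE 0.39, adjusted p = 0.00152), -3.34 for *Ccr1* (SE 0.46, adjusted p = 0.00151), 1.57 for *Cx3cr1* (SE 0.29, adjusted p = 0.0071) and -0.03 for *Cxcr4* (SE 0.34, adjusted p = 0.975). Without the library block *Ccr1* and *Cx3cr1* missed the threshold (adjusted p = 0.137 and 0.0543). At 2000 UMIs, *Ccr2* was found in 83.6% of 110 classical and 23.1% of 104 nonclassical monocyte-like barcodes, and *Cx3cr1* in 15.5% and 75%. These shares pool the libraries, and vehicle gave 96 of the classical but 21 of the nonclassical barcodes. By library, *Ccr2* was found in 82.3%, 100% and 90.9% of 96, 3 and 11 classical barcodes. In nonclassical ones its shares were 52.4%, 22.0% and 9.52%. *Cx3cr1* was found in 13.5%, 33.3% and 27.3% of classical and 61.9%, 73.2% and 83.3% of nonclassical barcodes. Within the nonclassical barcodes the receptors did not exclude each other: *Cx3cr1* was found in 83.3% of *Ccr2*-positive and 72.5% of *Ccr2*-negative ones. *Arg1*-positive macrophage-like barcodes held *Ccr2* at 786 CPM and *Ccr1* at 499 CPM.

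T cell-like barcodes with UMIs of *Cd8a* or *Cd8b1* and none of *Cd4* (41, 59 and 57) were set against those with *Cd4* alone (69, 38 and 48). *Ccr2* was a receptor of the CD4+ barcodes, at 318, 371 and 308 CPM against 60.2, 63.0 and 34.8 CPM in CD8+ ones, without overlap. It was the 1 receptor of 6 that passed, against 5.71% of genes (log2 fold change -2.62, SE 0.22, adjusted p = 1.03e-17). At 2000 UMIs, 32.5% of 117 CD4+ and 4.84% of 124 CD8+ barcodes were positive. *Cxcr6* (0.35, SE 0.16, adjusted p = 0.274) and *Cxcr3* (0.37, SE 0.18, adjusted p = 0.311) lay slightly higher in CD8+ sums without passing. All 3 ligands tested were higher in CD8+ sums, *Ccl5* by 2.80, *Ccl4* by 1.78 and *Cxcl10* by 1.78 (adjusted p = 6.14e-26, 0.000548 and 3.56e-05).

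**Figure D4:**
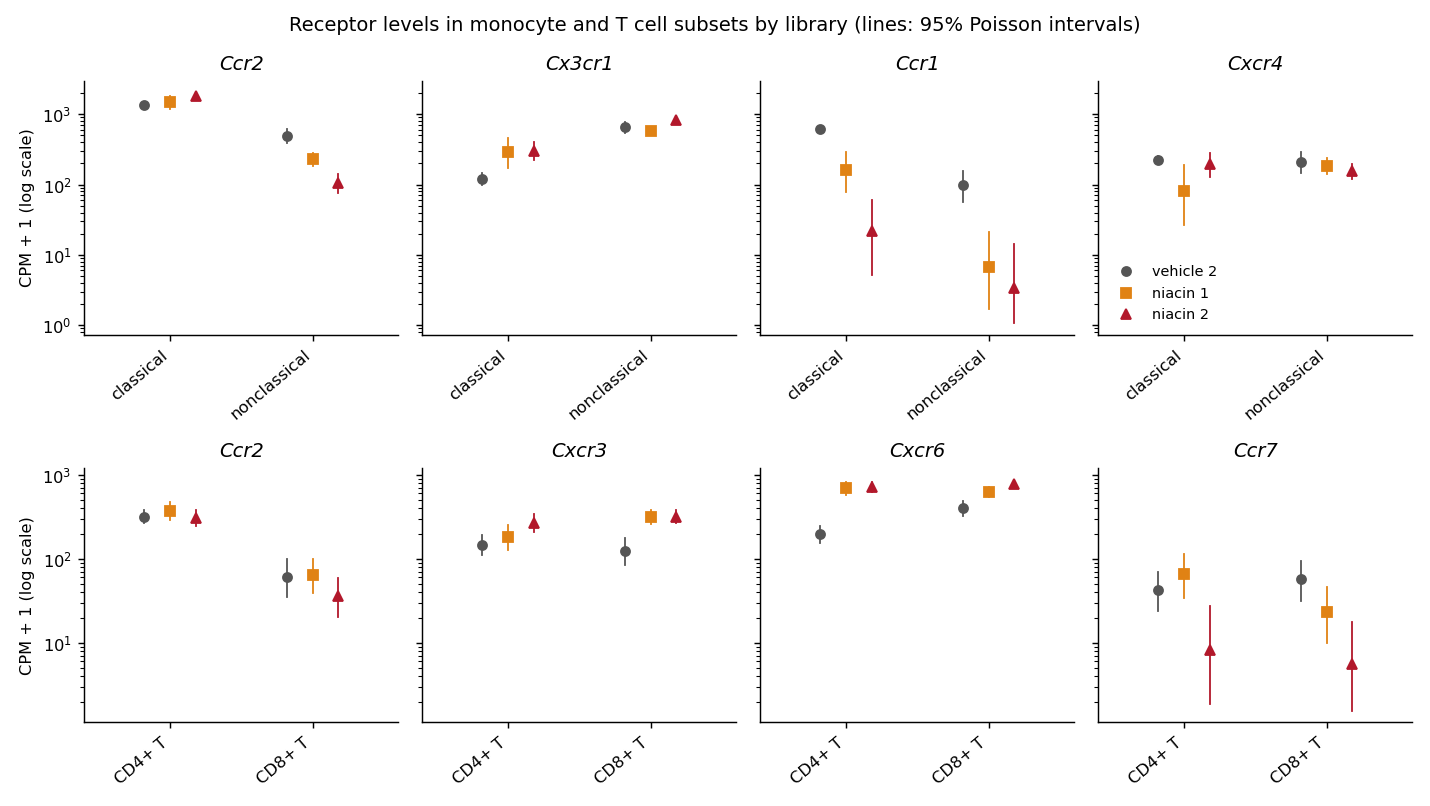
Receptor levels in classical and nonclassical monocyte-like sums (upper row) and in CD4+ and CD8+ T cell-like sums (lower row), as CPM + 1 on a log axis, with 1 point per library and lines for the 95% Poisson intervals. In every library *Ccr2* is higher in classical than nonclassical (1357 to 1799 against 104 to 491 CPM) and in CD4+ than CD8+ barcodes (308 to 371 against 34.8 to 63.0 CPM).

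Within single barcodes at 2000 UMIs, *Cxcr6* was found in 68.1% of *Cxcr3*-positive and 33.2% of *Cxcr3*-negative T cell-like barcodes, whose median depths before thinning were 6507 and 6970 UMIs. The same order held among CD8+ (80% and 44.3%) and CD4+ barcodes (54.8% and 32.6%). Of 15 *Ccr7*-positive T cell-like barcodes 1 was *Cxcr6*-positive (6.67%), against 44.7% of the *Ccr7*-negative ones. Among CD4+ barcodes, *Cxcr6* was found in 65.8% of *Ccr2*-positive and 25.3% of *Ccr2*-negative ones. In neutrophil-like barcodes *Ccr1* was found in 73.3% of *Cxcr2*-positive and 20.5% of *Cxcr2*-negative ones, which also differed in depth (median 4082 and 13144 UMIs). These shares describe barcodes pooled over 3 libraries, and were not tested. In T cell-like barcodes the receptors also moved with the library. The *Ccr7*-positive ones numbered 10, 3 and 2, while *Cxcr6* was found in 23.2%, 48.8% and 59.5% and *Cxcr3* in 16%, 30.0% and 38.8%. What part the libraries have in the paired shares was not tested.

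Over the 18 sums of 6 classes in 3 libraries, the genes most like each receptor were ranked by Pearson's r of log2(CPM + 10), as a description across sums that share libraries and depth. For *Cxcr3* they were *Xcl1* (0.99), *Cxcr6* (0.99) and *Ctsw* (0.98), and for *Cxcr6* *Ctsw*, *Xcl1* and *Skap1* (0.99 each). *Cx3cr1* was nearest to *Cyfip1*, *Abca9* and *Pros1* (0.97 each), and *Ccr2* to *S100a4* (0.95), *Nab1* (0.94) and *Bcl2a1d* (0.92). *Ccr1* was nearest to *Cd300lf* (0.96), *Slc7a11* (0.96) and *Bst1* (0.95), *Cxcr2* to *Il1f9* (0.96), *Cebpe* (0.94) and *Adpgk* (0.93), and *Cxcr4* to *Iqgap1* (0.94), *Gpd2* (0.93) and *Alcam* (0.92).

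In the study, niacin served as a stimulus of phagocytosis, and the treated tumors were profiled to follow the role of the kinase PKCδ in them. Only 1 vehicle library was analysed, so treatment and library cannot be told apart, the lone vehicle library was assumed to vary like the niacin libraries, and p-values measure the spread between 2 niacin pools. The class sizes moved with the libraries too: monocyte/macrophage-like barcodes were 20.02%, 3.94% and 4.003% of those kept, and microglia-like ones 32.6%, 59.5% and 61.0%. What part these and the higher mitochondrial share of vehicle have in the differences was not tested.

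In monocyte/macrophage-like sums, 3 of 4 receptors differed between niacin and vehicle, against 21.1% of genes. *Ccr1* was lower with niacin, 28.9 and 19.96 CPM against 504 CPM in vehicle (log2 fold change -4.42, SE 0.32, adjusted p = 5.80e-40; DESeq2 -4.41, adjusted p = 5.17e-14). *Ccr2* was lower as well, 451 and 648 against 1050 CPM (-0.95, SE 0.21, adjusted p = 6.45e-05), a call lost in DESeq2 (adjusted p = 0.0726), and reached -2.38 without shared barcodes. *Cx3cr1* was higher, 524 and 629 against 196 CPM (1.54, SE 0.26, adjusted p = 5.18e-08). *Cxcr4* did not pass (-0.50, SE 0.27, adjusted p = 0.217). The makeup of the class moved in the same libraries, classical monocyte-like barcodes being 54.3%, 8.93% and 20.3% of it and nonclassical ones 9.43%, 85.7% and 68.8%.

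Within nonclassical monocyte-like barcodes alone, a comparison added after the data were seen, 2 of 4 receptors differed, against 4.82% of genes. *Ccr1* was lower with niacin (-4.40, SE 1.01, adjusted p = 0.000765), from 17 UMIs in vehicle and 2 and 1 in the niacin libraries, and *Ccr2* was lower (-1.51, SE 0.27, adjusted p = 3.62e-06). *Cx3cr1* did not differ beyond the spread there (0.18, SE 0.21, adjusted p = 0.761). The 17 *Ccr1* UMIs of vehicle lay in 4 of its 25 nonclassical monocyte-like barcodes. In the few classical monocyte-like barcodes of the niacin libraries, *Ccr1* was at 160 and 20.6 CPM beside 623 CPM in vehicle, and *Ccr2* at 1468 and 1799 beside 1357 CPM. Of the ligands, 8 of 13 tested were lower with niacin in the sums of the whole monocyte/macrophage-like class and none higher, against 21.1% of genes, with a median of -3.58 beside 0.00 for all genes. *Cxcl9* (-6.20) and *Cxcl10* (-5.10) were among them. Within nonclassical barcodes 5 of 11 ligands were lower and 1 higher, against 4.82% of genes, with a median of -1.24 beside 0.03. *Cxcl9* (-10.12) and *Cxcl10* (-7.48) were again among the lower ones, and *Ccl6* was higher (1.05, adjusted p = 0.00818). Both other receptors tested in the whole class were lower, *Ccrl2* by -1.48 (adjusted p = 8.47e-06), whereas *Ccrl2* did not pass within nonclassical barcodes (0.24, adjusted p = 0.902).

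In microglia-like sums, 4 of 8 receptors differed, against 26.3% of genes, and all 4 calls were lost in DESeq2 (adjusted p of 0.105 or more). *Cx3cr1* was higher with niacin, 5663 and 5095 against 4283 CPM (0.40, SE 0.12, adjusted p = 0.011). *Ccr2* was at 5.1 and 5.3 against 19.3 CPM (-1.81, SE 0.34, adjusted p = 0.000119), *Cxcr4* at 1.7 and 0.44 against 7.3 CPM (-2.69, SE 0.72, adjusted p = 0.00528) and *Ccr1* at 11.4 and 3.1 against 18.01 CPM (-1.27, SE 0.40, adjusted p = 0.0161). These 3 were rare in the class, found at 2000 UMIs in 22, 8 and 19 of 1585 microglia-like barcodes. In vehicle their levels were under the upper interval limits of choroid plexus-like sums, 24.9 CPM for *Ccr2* and *Ccr1* and 13.4 CPM for *Cxcr4*. With niacin, *Ccr2* in both libraries and *Ccr1* in niacin 1 were above those limits (2.84 and 3.62 CPM), and the rest below theirs. What part free RNA has in the levels of these 3 receptors was not tested. In each library their levels were higher in monocyte/macrophage-like sums, and that class made up more of vehicle, as did neutrophil-like barcodes (6.19%, 5% and 2.81% of those kept), in which *Ccr1* and *Cxcr4* had their highest means. What part this has in the differences was not tested. *Ccr1* lost its call without shared barcodes (-0.86, adjusted p = 0.167). Of 13 ligands, 7 were lower and none higher, among them *Cxcl9* (-7.04), *Cxcl10* (-2.71) and *Ccl7* (-2.23).

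In T cell-like sums, 4 of 7 receptors differed, against 16% of genes. *Cxcr6* was higher with niacin, 627 and 721 against 242 CPM (1.65, SE 0.23, adjusted p = 1.53e-10), and *Cxcr3* was higher, 255 and 278 against 119 CPM (1.33, SE 0.24, adjusted p = 1.93e-06). Both kept their call in DESeq2 (adjusted p = 1.50e-07 and 0.00462) and without shared barcodes (1.59 and 1.39, adjusted p = 0.00193 and 0.00773). *Ccr7* was lower, 30.6 and 11.7 against 67.6 CPM (-1.60, SE 0.36, adjusted p = 0.000279), and *Ccr9* was higher, with 7 and 24 UMIs against 4 (2.34, SE 0.76, adjusted p = 0.0185). Those 2 calls were lost without shared barcodes (-0.86 and 1.84, adjusted p = 0.265 and 0.314), and DESeq2 gave them no adjusted p. *Ccr2* (-0.18), *Cxcr4* (-0.55) and *Cx3cr1* (-0.11) did not pass.

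CD8+ barcodes made up 21.4%, 47.2% and 38.0% of T cell-like barcodes and CD4+ ones 35.9%, 30.4% and 32%. Within the CD4+ barcodes *Cxcr6* was at 195, 693 and 717 CPM, and within the CD8+ ones at 402, 624 and 784 CPM, with both niacin libraries above vehicle in each subset. *Cxcr3* was at 145, 183 and 268 CPM in CD4+ and 124, 315 and 318 CPM in CD8+ barcodes, again lowest in vehicle. At 2000 UMIs, *Cxcr6* was found in 23.2%, 48.8% and 59.5% of T cell-like barcodes and *Cxcr3* in 16%, 30.0% and 38.8%, with 67, 45 and 29 shallower barcodes left out. Unthinned, the shares were 29.2%, 64.8% and 75.3% for *Cxcr6* and 30.2%, 57.6% and 64.0% for *Cxcr3*. Of 6 ligands and 5 other receptors tested, *Ccl5* (1.34, adjusted p = 2.84e-07) and *Ccr8* (3.58, adjusted p = 0.000327) were higher with niacin, and *Cxcl10* (-1.19, adjusted p = 0.000213) and *Cxcr5* (-3.71, adjusted p = 0.007) were lower.

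In B cell-like sums 2 receptors were tested, and 1 passed, against 12.3% of genes: *Cxcr4* was lower with niacin, 141 and 64.0 against 215 CPM (-1.26, SE 0.39, adjusted p = 0.0148). This call was lost without shared barcodes (-0.83, adjusted p = 0.373) and with total UMIs (-1.13, adjusted p = 0.136), and DESeq2 gave it no adjusted p. *Ccr7* did not pass (1.48, SE 0.78, adjusted p = 0.236). None of 4 receptors passed in neutrophil-like sums, against 3.69% of genes, and in DESeq2 none passed either. At an unadjusted p under 0.05 there was 1 of the 4 in edgeR, *Cxcr4*. It was at 120 and 172 against 762 CPM (-1.66, SE 0.56, adjusted p = 0.0874). *Cxcr2* was at 504 and 487 against 1623 CPM (-1.01, SE 0.60, adjusted p = 0.453) and *Ccr1* at 280 and 227 against 798 CPM (-0.96, SE 0.57, adjusted p = 0.441). Log2 fold changes carry the TMM scaling of edgeR, which CPM do not, and in this class the 2 differed. The log2 ratios of CPM to vehicle were -2.67 and -2.14 for *Cxcr4*, -1.69 and -1.74 for *Cxcr2* and -1.51 and -1.81 for *Ccr1*.

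Neutrophil-like barcodes were also split by the secondary granule genes *Camp*, *Ngp* and *Ltf*, which maturing neutrophils make in the bone marrow. Those with 2 or 3 of the genes detected were 19.5%, 46.5% and 62.2% of the class (16, 33 and 28 barcodes). The class also differed in depth, with medians of 1957, 3227 and 7000 UMIs. After thinning to 2000 UMIs the shares were 15%, 46.3% and 65.8% of 40, 41 and 38 barcodes, with 42, 30 and 7 shallower ones left out. In this split, chosen after its values were seen, *Cxcr2* was at 2243, 1322 and 1177 CPM in barcodes with 0 or 1 of the genes and 607, 294 and 339 CPM in the others, without overlap. *Ccr1* was at 1139, 702 and 615 CPM against 238, 171 and 143 CPM, also without overlap. *Cxcr4* was at 1045, 144 and 281 CPM against 297, 113 and 149 CPM, ranges that overlapped. Within both kinds of barcode vehicle had the highest level of all 3 receptors. The kinds differed in depth as well, those with 2 or 3 genes having medians of 1050, 8833 and 12154 UMIs against 2083, 1671 and 4110. In the thinned barcodes *Ccr1* still did not overlap (1324, 636 and 654 against 333, 158 and 180 CPM), whereas *Cxcr2* did (2059, 1205 and 1577 against 1333, 474 and 360 CPM), being higher with 0 or 1 gene in each library. *Cxcr4* lay lower with 0 or 1 gene in the thinned barcodes of both niacin libraries (159 and 192 against 211 and 220 CPM), from 5 to 11 UMIs a sum.

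**Figure D5:**
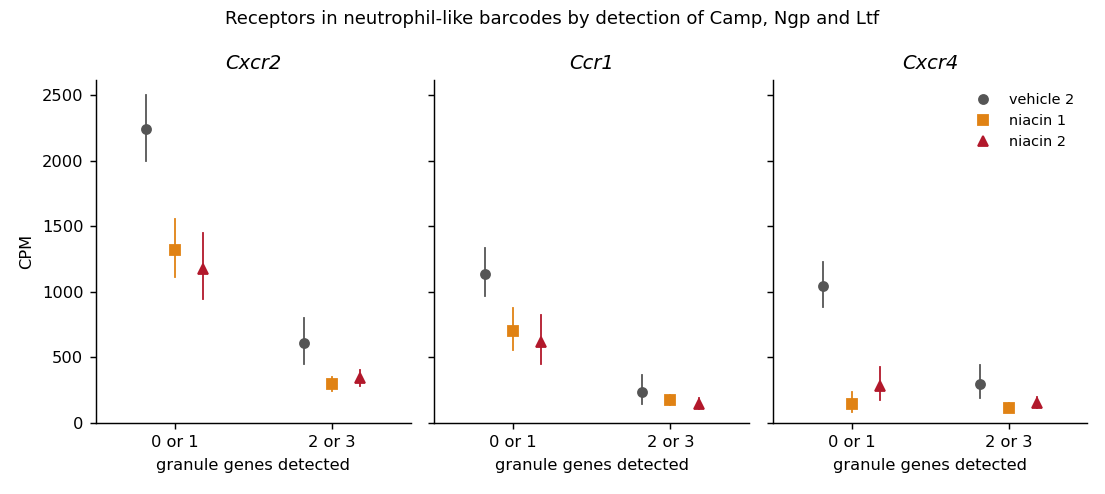
Levels of *Cxcr2*, *Ccr1* and *Cxcr4* (CPM) in neutrophil-like barcodes with 0 or 1, or 2 or 3, detected granule genes (*Camp*, *Ngp*, *Ltf*), with 1 point per library and lines for the 95% Poisson intervals. In every library the barcodes with 0 or 1 granule gene are higher before thinning, for *Cxcr2* at 1177 to 2243 against 294 to 607 CPM.

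Whether the niacin effect on a receptor differed between classes was tested as an interaction. For *Ccr1* the fall in monocyte/macrophage-like sums was larger than in microglia-like sums (difference -3.14 on the log2 scale, adjusted p = 8.16e-05, against 5.4% of genes called), neutrophil-like sums (-3.49, adjusted p = 1.76e-06, against 2.99%) and T cell-like sums (-9.63, adjusted p = 0.000981, against 3.02%). In the last of these vehicle T cell-like barcodes held no *Ccr1* UMI, so that the size of the difference depends on the prior count. No difference of another receptor passed between any pair of the 5 classes. The shares of genes called in the other pairs were 0.322% for B cell- minus microglia-like, 2.4% for neutrophil- minus microglia-like, 0.582% for T cell- minus microglia-like, 0.914% for B cell- minus monocyte/macrophage-like, 0.883% for B cell- minus neutrophil-like, 0.135% for B cell- minus T cell-like and 1.13% for neutrophil- minus T cell-like sums.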

How the data were processed

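The authors made the UMI counts with Cell Ranger 3.1 (STAR aligner, mm10 genome, per the processing notes), and deposited them per gene and barcode for 3 libraries without normalization. Barcodes with at least 200 genes and at most 20% mitochondrial UMIs were kept, a barcode found in several libraries only in its deepest. Lists of markers for 13 classes set the class of a barcode: at least 2 markers and at most 50% as many of the next class, otherwise mixed or unassigned. No doublet caller was run, and mixed barcodes were left out of every test. The members and lists were chosen with earlier results of these data known.

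Counts were summed per class and library and tested in edgeR 4.0.16 (quasi-likelihood, TMM, filterByExpr, Benjamini-Hochberg adjustment over all genes) with a minimum of 10 barcodes per sum. Library was a block between classes, since classes of a library come from the same pool of mice. P-values between classes therefore measure how far class differences varied between the 3 pools, which includes any difference between vehicle and niacin. Niacin was set against vehicle within a class, and the standard error is that of the log2 fold change. DESeq2 1.42.0 was run as an alternative. In tests on simulated data with 4-fold changes, 97.5% of 200 changed genes were recovered for microglia against monocyte/macrophage (9221 genes) and 90% for niacin against vehicle in microglia (11367 genes). Named genes are the 9 receptors, the 3 genes most like each receptor with a mean of at least 20 CPM, and called genes of the ligand, receptor and signaling lists, of which a receptor is not reported here. Thinning drew 2000 UMIs per barcode without replacement. Python 3.11.15, scipy 1.17.1 and R 4.3.3 were used. NK cell-like sums were not compared between niacin and vehicle, and the spatial and human data of the study were not used here.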

Additional observations from a re-analysis of the deposited data

Results flagged for a closer look

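The niacin effect on *Ccr1* differed between classes by a test of the difference. The effect in monocyte/macrophage-like sums was lower than that in microglia-like sums by -3.14, in neutrophil-like sums by -3.49 and in T cell-like sums by -9.63 on the log2 scale. In microglia-like sums *Ccr1* itself was at 18.01 CPM in vehicle and 11.4 and 3.1 CPM with niacin, and in T cell-like sums at 0, 6.4 and 2.1 CPM. Treatment and library cannot be told apart in these differences.

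In barcodes outside the compared classes, some receptors lay higher in a niacin library than in vehicle and others lower, and none was tested. Unassigned barcodes of niacin 2 held *Ccr9* at 354 CPM against 11.7 CPM in vehicle, and 1 barcode held 16 of those UMIs, while unassigned barcodes of niacin 1 held none and mixed barcodes held 39.1 CPM in vehicle, 2.30 in niacin 1 and 69.9 in niacin 2. Mixed barcodes held *Cxcr2* at 50.5 CPM in niacin 1 and 119 CPM in niacin 2 against 9.47 CPM in vehicle. *Cxcr6* in mixed barcodes was at 87.2 and 153 CPM against 43.8 CPM, the direction also seen in T cell-like sums. *Cx3cr1* was at 652 and 1336 CPM in mixed barcodes against 372 CPM, and at 1248 and 866 CPM in unassigned barcodes against 326 CPM. Lower with niacin were *Ccr1* (84.9 and 104 against 238 CPM) and *Ccr2* (241 and 186 against 449 CPM) in mixed barcodes, and *Ccr1* (52.0 and 0 against 152 CPM), *Ccr2* (156 and 217 against 396 CPM) and *Cxcr4* (52.0 and 39.4 against 222 CPM) in unassigned ones. Microglia-like barcodes made up a larger share of both niacin libraries than of vehicle, and monocyte/macrophage-like ones a smaller share, and the part of that in these levels was not tested.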

How the results depend on the processing

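Counts of called receptors and of assigned barcodes stayed within 1.5 times in 123 alternatives and moved further in 18. T against B cell-like went from 5 to 3 with at least 3 markers, at least 500 genes, total UMIs, shared barcodes removed or no replicate block. Without the block, neutrophil- against monocyte/macrophage-like went from 5 to 3 and nonclassical against classical from 3 to 1. CD8+ against CD4+ went from 1 to 2 with no low-count filter, and T against NK cell-like from 2 to 1 in DESeq2, where neither of the 2 passed and *Cx3cr1* did. Niacin against vehicle went from 1 to 0 in B cell-like sums (DESeq2, shared barcodes removed, total UMIs), from 4 to 2 in T cell-like sums (DESeq2, shared barcodes removed) and from 4 to 0 in microglia-like sums (DESeq2, no marker of another class). That last rule left 333 assigned barcodes of 3945. The cause of these changes was not tested.

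Leaving out 1 library gave 3 to 5 called receptors for neutrophil- against monocyte/macrophage-like (3 without niacin 2), 4 to 5 for T against B cell-like, 2 to 3 for nonclassical against classical, and the reported number in the other 4 class comparisons: 7 (T against monocyte/macrophage-like), 4 (microglia- against monocyte/macrophage-like), 2 (T against NK cell-like) and 1 (CD8+ against CD4+). Niacin and vehicle pools were different mice, and the labels give no pairing between them. No paired analysis was therefore run, and the block was used between classes alone.

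No receptor that passed the test turned its sign, except *Cxcr2* in T against B cell-like sums (3.28 without shared barcodes, -4.56 to 3.38 without 1 library, the latter without vehicle). Values that had not passed turned for *Cxcr2* in T against NK (-1.31, DESeq2), T against monocyte/macrophage-like (0.14 in DESeq2, 0.28 with 3 markers, 0.0026 with total UMIs, -1.03 to 3.38 without 1 library) and microglia- against monocyte/macrophage-like sums (-0.028). They turned for *Cxcr6* in microglia- and neutrophil- against monocyte/macrophage-like sums (-0.35 and -0.086), all 3 without shared barcodes. In CD8+ against CD4+ they turned for *Ccr7* (-0.30 to 0.40 without 1 library, 0.40 without niacin 1) and *Cxcr4* (-0.48 to 0.039, the latter without vehicle), and in nonclassical against classical for *Cxcr4* (-0.32 to 0.19, with 0.19 without niacin 2 and 0.13 without vehicle). With niacin they turned for *Cx3cr1* in T cell-like (0.10 without shared barcodes) and neutrophil-like sums (0.72 without shared barcodes, 0.15 at 10% mitochondrial UMIs) and *Cxcr2* in microglia-like sums (-0.013, total UMIs).

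Counts of all called genes moved more. The number in the report and the lowest and highest under the alternatives were 4107, 2604 and 4755 for microglia- and 2133, 958 and 3067 for neutrophil- against monocyte/macrophage-like, 1179, 676 and 1460 for T against B cell-like, 298, 138 and 360 for T against NK cell-like, 245, 48 and 280 for CD8+ against CD4+ and 404, 222 and 862 for nonclassical against classical. With niacin they were 3000, 9 and 3261 in microglia-like, 1574, 384 and 1725 in monocyte/macrophage-like, 1360, 201 and 1507 in T cell-like, 394, 78 and 398 in B cell-like and 194, 39 and 261 in neutrophil-like sums. Scaling by total UMIs changed the split of higher and lower genes from 605 and 574 to 787 and 457 in T against B cell-like, from 107 and 138 to 92 and 183 in CD8+ against CD4+, and with niacin from 1434 and 1566 to 1196 and 2065 in microglia-like, from 654 and 706 to 400 and 1107 in T cell-like, from 222 and 172 to 190 and 79 in B cell-like and from 51 and 143 to 0 and 39 in neutrophil-like sums, where size factors of DESeq2 gave 92 and 151. The niacin comparisons rest on 1 vehicle library, and those of NK cell- and classical monocyte-like sums on 7 and 5 barcodes in niacin 1.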

Other observations

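*Cx3cr1* was also found in barcodes assigned to basophils or mast cells. Their sums held 382, 312 and 411 CPM from 5, 31 and 36 barcodes, between the microglia-like and the choroid plexus-like level in every library. At 2000 UMIs, 27 of 59 of them (45.8%, interval 32.7% to 59.2%) were positive, against 15 of 266 choroid plexus-like barcodes (5.64%). The other receptors were rare there, *Cxcr4* being found in 5 of the 59 and *Ccr2* and *Cxcr2* in 1 each. No doublet caller was run, and a barcode of a class could carry some markers of another. What part RNA of microglia-like cells has in this *Cx3cr1* level was not tested.

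*Ccr2* was present in the 3, 1 and 3 conventional dendritic cell-like barcodes at 464, 727 and 481 CPM. *Ccr7* was at 1748 CPM in the 6 migratory dendritic cell-like barcodes, from 18 UMIs, and *Ccr9* at 4301 CPM in the 3 plasmacytoid dendritic cell-like barcodes, all of vehicle.

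The signaling genes behind the receptors differed between classes as well. Of 14 genes, 13 were tested between neutrophil- and monocyte/macrophage-like sums, and 4 were higher and 2 lower, against 22.1% of all genes. *Rac2*, a GTPase of leukocyte migration, and *Arrb2*, an arrestin that desensitizes receptors, were higher in neutrophil-like sums (2.03 and 2.28, adjusted p = 4.06e-06 and 1.01e-05, edgeR), and *Grk3*, a receptor kinase, was lower (-3.03, adjusted p = 4.98e-05). In T against B cell-like sums 4 of 13 were higher, against 12.2% of all genes, *Rgs1*, a regulator that shortens G protein signals, by 6.49 (adjusted p = 1.79e-05). In the other class comparisons, 9 of 13 were called between microglia- and monocyte/macrophage-like sums (3 higher and 6 lower, against 42.6%), 8 of 13 between T cell- and monocyte/macrophage-like sums (2 higher and 6 lower, against 35%), 2 of 13 between nonclassical and classical monocyte-like sums (both higher, against 9.79%), 2 of 11 between CD8+ and CD4+ barcodes (1 in each direction, against 5.71%) and 1 of 13 between T cell- and NK cell-like sums (higher, against 3.32%).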
